A study of Bos taurus with 9 samples.

Results

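The 5 mature miRNAs described here, bta-miR-142-5p, bta-miR-142-3p, bta-miR-150, bta-miR-155 and bta-miR-342, are the ones that are best known from lymphocytes and other white blood cells. They were taken by name as 5 of the 515 miRNAs measured in bovine rectal tissue, and all 5 were among the 245 miRNAs abundant enough to test. Small RNA was sequenced from 9 feedlot steers, 1 library per animal: 5 super-shedders (SS), whose feces had held over 10000 colony-forming units of E. coli O157 per gram, and 4 non-shedders (NS), negative pen-mates. The sources name no drug treatment or engineered allele, and all steers received a finishing diet based on barley. Not all SS were still at this level when slaughtered. Only SS steer 310 had a fecal count on the day of slaughter, and it was above this level. The other SS were scored as positive on the day before, without a count. The relation of shedding at slaughter to the miRNA levels was not tested. Each sample came from 2 pieces of unsorted rectal tissue taken 3 to 5 cm above the recto-anal junction, and no cell type was purified. The comparison asked which miRNAs of this tissue differ between SS and NS.

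A miRNA is cut from a hairpin precursor and guides silencing proteins to mRNAs that pair with it. Both arms of a hairpin can give a mature miRNA, as with the 5p and 3p arms of miR-142. In mice and humans, miR-142 is made throughout the blood lineages, from stem cells to T cells, B cells and myeloid cells, and is nearly absent elsewhere. The miRNA miR-150 accumulates as B and T cells mature, and in mice it represses Myb, a transcription factor of immature lymphocytes. In contrast, miR-155 is low in resting lymphocytes and is induced when B cells, T cells or macrophages are activated, and mice without it form poor germinal centers, the follicle zones in which B cells mature their antibodies. The miRNA miR-342 is made by B cells and myeloid cells but is also found outside the blood lineages. In the bovine RefSeq annotation (assembly ARS-UCD2.0, used for names and neighbours only), the hairpin gene MIR142 lies within the spans of TSPOAP1 and LOC132342998. MIR342 lies within the span of EVL, and MIR155 next to MRPL39. None of the 4 hairpin genes had another miRNA gene within 50 kb. The 5 miRNAs therefore represent 4 separate loci, and the arms of miR-142 share 1 precursor.

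The library totals were 1486495 to 6314556 reads in SS and 650726 to 2316164 reads in NS, so that 1 read was worth 0.158 to 1.54 CPM, the deposited unit. These totals are the ones the deposited values were divided by, and the reads of a library in the table summed to more. The values summed to 1089433 CPM in NS steer 242 and to 1024945 to 1035378 CPM in the other libraries. The 5 miRNAs rested on 88 to 28769 reads each per library. Together they took 0.530% ± 0.655 (SD, n = 5) of the summed miRNA reads in SS, while their share in NS was 1.29% ± 1.75 (SD, n = 4). Without NS steer 242 the NS share was 0.413% ± 0.113 (SD, n = 3), below that of SS, so the order of these means rested on 1 library. The highest share was 3.91% in NS steer 242 and the lowest 0.0442% in SS steer 310. Defining miRNAs of the rectal wall were present in every library, with smooth muscle bta-miR-143 at 221055 to 730780 CPM and epithelial bta-miR-192 at 3305 to 271247 CPM over the 9 libraries. NS steer 242 and SS steers 274 and 310 stood apart from the other libraries in the members' levels. SS steers 310 and 274 also had the most reads of all libraries (6314556 and 4438272). In SS, steer 294 had the fewest reads (1486495) and the highest sum of the 5 (16332 CPM). NS steer 242 had 896649 reads, more only than NS steer 108 (650726), where the 5 summed to 5615 CPM. The part of library depth in these levels was not tested. The means without NS steer 242 are given for each member whose group order turns.

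The most abundant of the 5 was bta-miR-142-5p, which ranked first among them in all 9 libraries and 17th of the 515 miRNAs by mean level. It had 399, 5976, 13030, 1522 and 295 CPM in SS steers 274, 287, 294, 299 and 310, against 3862, 2486, 2377 and 32085 CPM in NS steers 108, 152, 165 and 242. SS steers 287 and 294 exceeded 3 of the 4 NS libraries, while SS steers 274 and 310 lay far below all of them, so the groups overlapped. SS averaged 4245 ± 5431 CPM (SD, n = 5), and NS averaged 10202 ± 14604 CPM (SD, n = 4) with NS steer 242 and 2908 ± 828 CPM (SD, n = 3) without it, so that the order of the means turned. The log2 difference was -1.62 (SE 1.16), which did not pass in limma (adjusted p = 0.440), and it was -0.74 without NS steer 242 and -0.99 without SS steer 310. In bulk tissue, fewer white blood cells and less of the miRNA per cell cannot be told apart.

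The other arm, bta-miR-142-3p, had 33.6, 781, 1559, 134 and 26.9 CPM in SS steers 274, 287, 294, 299 and 310, against 318, 274, 219 and 2651 CPM in NS steers 108, 152, 165 and 242. The order of the 9 libraries was the same as for bta-miR-142-5p. SS minus NS was -1.45 on the log2 scale (SE 1.22), with an adjusted p of 0.503 in limma. Without NS steer 242 it was -0.62, without SS steer 274 -0.87, without SS steer 310 -0.79 and without SS steer 294 -2.24, and on the whole reads DESeq2 gave -0.20 and edgeR (quasi-likelihood) -0.26. SS averaged 507 ± 666 CPM (SD, n = 5), and NS averaged 865 ± 1191 CPM (SD, n = 4) with NS steer 242 and 270.2 ± 49.7 CPM (SD, n = 3) without it. The exact permutation p was 0.365, and 0.278 for bta-miR-142-5p. The 5p arm gave 7.65 to 11.9 reads per 3p read in SS and 9.09 to 12.1 in NS. Thus the ratio of the arms varied far less than the levels, whose range over the 9 libraries was 98.5-fold for the 3p arm. The difference in log2 of 3p over 5p was 0.17 (exact permutation p = 0.302).

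Among the 5, bta-miR-150, which marks mature lymphocytes, had the largest spread. It held 53.6, 312, 953, 148 and 13.9 CPM in SS steers 274, 287, 294, 299 and 310, against 716, 363, 321 and 5728 CPM in NS steers 108, 152, 165 and 242. NS steer 242 was well above the other 8 libraries, and 4 of the 5 SS libraries lay below every NS library, with SS steer 294 as the exception. The gap was narrow, as SS steer 287 (95% Clopper-Pearson interval 291 to 334 CPM) and NS steer 165 (298 to 345 CPM) overlapped in counting error. From SS steer 310, where bta-miR-150 rested on 88 reads (interval 11.2 to 17.2 CPM), to NS steer 242 the range was 411-fold. Its rank within a library went from 29th in NS steer 242 to 161st in SS steer 310. The log2 difference of -2.69 (SE 1.17) was the second lowest of the 245 miRNAs but did not pass in limma (adjusted p = 0.297, exact permutation p = 0.127). DESeq2 gave no p for bta-miR-150, since its Cook's distance in NS steer 242 was 10.1 and above the limit of 9.55. Without NS steer 242 the log2 difference was -1.76.

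The activation-induced bta-miR-155 was the 1 member whose groups did not overlap. It had 40.3, 253, 334, 169.8 and 44.0 CPM in SS steers 274, 287, 294, 299 and 310, against 475, 414, 339.8 and 1387 CPM in NS steers 108, 152, 165 and 242. All 5 SS libraries lay below all 4 NS libraries, which was true of 6.53% of the 245 tested miRNAs at lower level in SS, and 0 of the 245 lay higher in every SS library. The gap was narrow, as the highest SS library (steer 294, interval 306 to 365 CPM) and the lowest NS library (steer 165, interval 316 to 364 CPM) overlapped in counting error. It widened when the libraries were rescaled by TMM factors, which set the bulk of miRNAs equal between libraries, to 65.6 to 247 CPM in SS and 345 to 671 CPM in NS. After that scaling 4.49% of the 245 miRNAs did not overlap at lower level in SS. SS minus NS was -2.18 on the log2 scale (SE 0.73), with an adjusted p of 0.297 in limma. The exact permutation p was 0.0317, where 0.00794 is the smallest that this design can give. This difference was already known when bta-miR-155 was chosen for description.

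The fifth miRNA, bta-miR-342, differed least. It had 119.6, 445, 457, 189 and 72.7 CPM in SS steers 274, 287, 294, 299 and 310, against 244, 179, 183 and 746 CPM in NS steers 108, 152, 165 and 242. SS steers 287, 294 and 299 each exceeded the NS libraries 152 and 165, and the groups overlapped broadly. SS averaged 257 ± 182 CPM (SD, n = 5), and NS averaged 338 ± 274 CPM (SD, n = 4) with NS steer 242 and 202 ± 36.7 CPM (SD, n = 3) without it, so that the order of the means turned. SS minus NS was -0.46 on the log2 scale (SE 0.66), with an adjusted p of 0.648 in limma and an exact permutation p of 0.540. Without NS steer 242 it was 0.0146. Its sign also depended on the scaling, from -0.46 as deposited to 0.23 with TMM factors and 0.46 with quantile scaling.

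**Figure D1:**
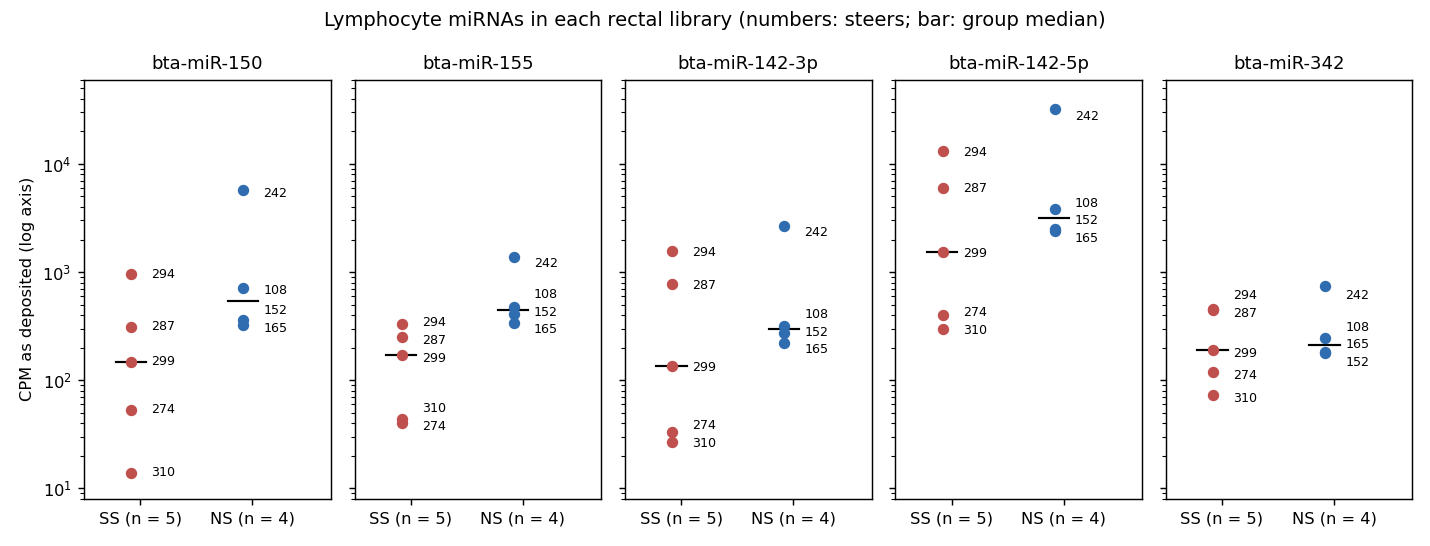
Level of each of the 5 miRNAs in every library, as deposited (CPM, log axis), with SS to the left and NS to the right. Points are libraries labelled by steer and bars are group medians. NS steer 242 is the highest library in all 5 panels, at 746 CPM for bta-miR-342 to 32085 CPM for bta-miR-142-5p, and bta-miR-155 is the panel in which SS (40.3 to 334 CPM) and NS (339.8 to 1387 CPM) do not overlap.

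Across the whole table, limma called 0 of 245 miRNAs between SS and NS, where a call needed a log2 difference beyond 1 in either direction and an adjusted p below 0.1 (0.0% of those tested, smallest adjusted p = 0.297), and 40 had an unadjusted p under 0.05. None of the 5 members was called. An unadjusted p under 0.05 at lower level in SS was reached by bta-miR-150 (0.0410) and bta-miR-155 (0.0114), beside 15.9% of all tested miRNAs. All 5 members had a log2 difference below 0, as did 88.2% of the tested miRNAs. The median of the 5 was -1.62 and that of all 245 was -0.70. Without NS steer 242 these medians were -0.74 and -0.53, without SS steer 274 -1.10 and -0.61, without SS steer 310 -0.99 and -0.45, and without SS steer 294 -2.35 and -0.90, so the distance of the 5 from all miRNAs depended on single libraries and was smallest without NS steer 242.

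After TMM scaling, which brought the median of all miRNAs to -0.04, the log2 differences were -2.01 for bta-miR-150 (SE 0.91), -1.50 for bta-miR-155 (SE 0.44), -0.93 for bta-miR-142-5p (SE 0.90) and -0.77 for bta-miR-142-3p (SE 0.97). At that scaling bta-miR-155 alone had an unadjusted p under 0.05 in limma (0.00652, adjusted p = 0.246), against 5.31% of the tested miRNAs at lower level in SS. On the whole reads, edgeR's quasi-likelihood test called 0 miRNAs (26 at an unadjusted p under 0.05), and its exact test called 1 (0.408%; 25 at an unadjusted p under 0.05), which was none of the 5. DESeq2 called bta-miR-155 as lower in SS, with a log2 difference of -1.36 (adjusted p = 0.0858), as 1 of 3 miRNAs called lower (1.22% of the 245). Its adjusted p over the other fits was as high as 0.587, in limma without NS steer 242.

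**Figure D2:**
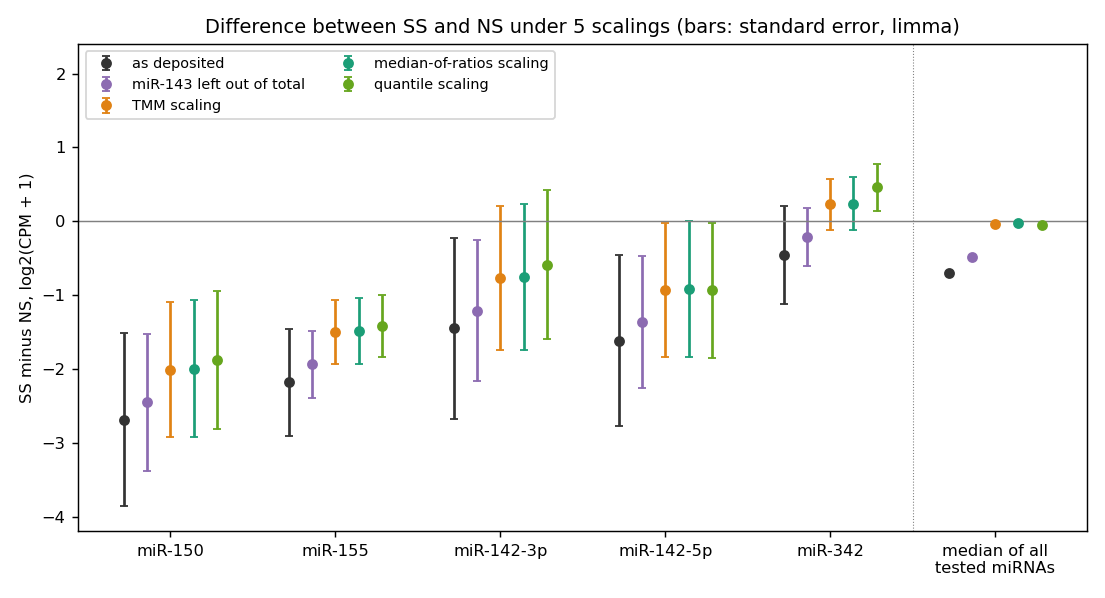
SS minus NS difference in log2(CPM + 1) for each of the 5 miRNAs and, at the right, the median of all 245 tested miRNAs, under 5 scalings of the libraries. Points are limma estimates and bars their standard errors. The differences of bta-miR-150 (-2.69 to -1.88) and bta-miR-155 (-2.18 to -1.42) stay below 0 under each, while bta-miR-342 turns from -0.46 as deposited to 0.46 with quantile scaling.

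The libraries that were high in one member were mostly high in the others, with exceptions for bta-miR-155. For both arms of miR-142 and bta-miR-342, SS steers 287 and 294 exceeded NS steers 108, 152 and 165. For bta-miR-155 they lay below these NS steers. All 5 miRNAs had their highest level in NS steer 242, as did 51.4% of the tested miRNAs as deposited. When each library was centred on its median log2 value, all 5 remained highest there, beside 22.4% of the tested miRNAs. Against the median of the other 3 NS libraries, NS steer 242 held 15.8-fold more bta-miR-150, 12.9-fold more bta-miR-142-5p, 9.69-fold more bta-miR-142-3p, 4.08-fold more bta-miR-342 and 3.35-fold more bta-miR-155. The lowest level of bta-miR-155 was in SS steer 274 and that of the other 4 in SS steer 310. SS steer 310 also had the lowest level of 55.5% of the tested miRNAs as deposited, and of 9.39% after centring, where 3 of the 5 members remained lowest there.

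Among the 245 tested miRNAs, ordered by the SD of the log2 level over the 9 libraries, bta-miR-150 was 3rd (SD 2.46), bta-miR-142-3p 7th, bta-miR-142-5p 9th and bta-miR-155 26th. The median SD was 0.91. By this measure bta-miR-342 was 92nd (SD 1.04), and after centring it was 202nd, with an SD of 0.43 beside a median of 0.66. The others were 10th (bta-miR-150), 19th (bta-miR-142-3p), 22nd (bta-miR-142-5p) and 58th (bta-miR-155) after centring.

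All 10 pairs of the 5 miRNAs were correlated over the 9 libraries, at a Pearson correlation of 0.813 to 0.994 on the log2 scale (exact permutation p adjusted over the 10 pairs at most 0.00807). The median was 0.940, beside 0.518 for all 29890 pairs of tested miRNAs, and levels in a library share its total. Centred on the library median, the medians were 0.798 for the members and 0.06 for all pairs, and 8 of the 10 pairs passed. The exceptions were bta-miR-342 with bta-miR-155 and with bta-miR-150. The arms of miR-142 were the closest pair (r = 0.994, rho = 1, exact permutation p = 2.76e-06 for r, the smallest that can be reached). The weakest pair was bta-miR-155 with bta-miR-342 (r = 0.813, exact permutation p = 0.00807; rho = 0.600, exact permutation p = 0.0968, which does not pass). Without SS steers 274 and 310 its r was 0.585, so that this relation rests on these libraries. When the group means were subtracted, r was 0.939 to 0.995 and all 10 pairs passed.

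Since ratios of miRNAs within a library do not depend on its scaling, the 10 ratios between members were also compared. SS and NS did not overlap for 2 of the 10, beside 3.88% of the 29646 ratios between tested miRNAs that were present in every library. The clearer one was bta-miR-155 per bta-miR-342. It was 0.337, 0.569, 0.732, 0.899 and 0.606 in SS steers 274, 287, 294, 299 and 310, against 1.94, 2.32, 1.86 and 1.86 in NS steers 108, 152, 165 and 242. Thus bta-miR-155 exceeded bta-miR-342 in every NS library and was below it in every SS library, and NS steer 242, with the highest levels of both, had the same ratio as the other NS libraries. The other was bta-miR-150 per bta-miR-142-5p, at 0.0472 to 0.134 in SS and 0.135 to 0.185 in NS, which nearly touch.

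The ratio of bta-miR-155 to bta-miR-142-5p overlapped, at 0.0257 to 0.149 in SS and 0.0432 to 0.166 in NS, and so did that of bta-miR-150 to bta-miR-155, at 0.317 to 2.85 in SS and 0.878 to 4.13 in NS. Taken against each of the 243 other miRNAs, bta-miR-155 separated the groups for 71 (29.2%), the third highest number among 244 miRNAs, with a median of 5. For the others the number was 10 (bta-miR-150), 9 (bta-miR-342), 4 (bta-miR-142-5p) and 2 (bta-miR-142-3p). These are counts of overlap and were not tested.

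**Figure D3:**
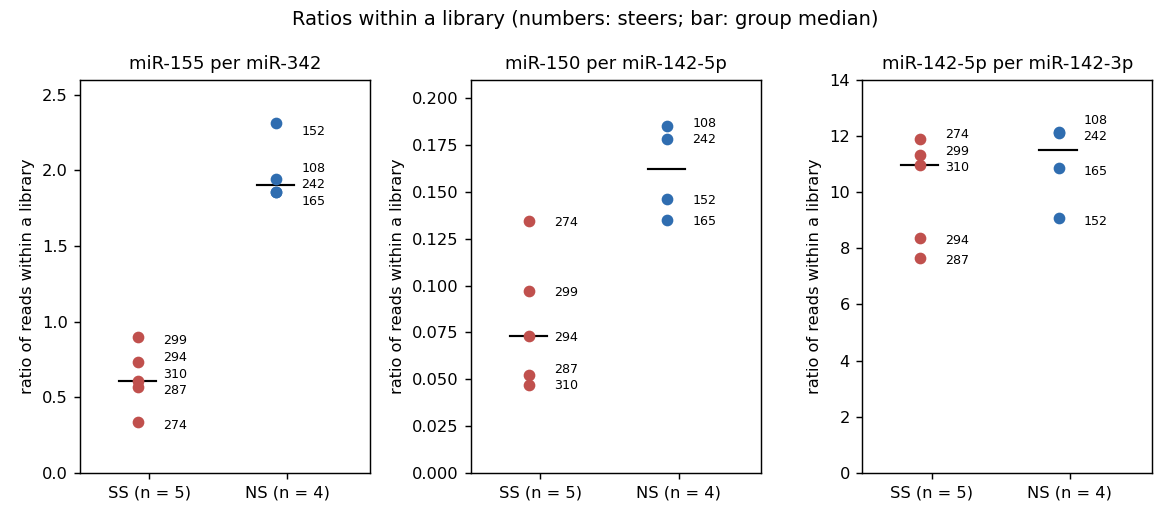
Ratio of reads within a library for bta-miR-155 per bta-miR-342, bta-miR-150 per bta-miR-142-5p, and bta-miR-142-5p per bta-miR-142-3p, with SS to the left and NS to the right. Points are libraries labelled by steer, bars are group medians, and each axis starts at 0. The first ratio is 0.337 to 0.899 in SS and 1.86 to 2.32 in NS, whereas the arms of miR-142 overlap at 7.65 to 11.9 in SS and 9.09 to 12.1 in NS.

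Of 12 other miRNAs known from immune cells, 11 were tested and 0 passed in limma (0 also had an unadjusted p under 0.05), with 10 at lower and 1 at higher mean log2 level in SS. Their median log2 difference was -0.82, beside -0.70 for all tested miRNAs. The lowest was bta-miR-147, induced by Toll-like receptor signals in mouse macrophages, with SS minus NS at -1.33 (SE 0.81, adjusted p = 0.358 in limma). It was low throughout, at 1.80, 52.8, 13.5, 5.64 and 1.90 CPM in SS steers 274, 287, 294, 299 and 310, against 32.3, 22.5, 13.4 and 16.7 CPM in NS steers 108, 152, 165 and 242. Thus the groups overlapped. The highest difference was that of bta-miR-146a, a feedback inhibitor of NF-kB signalling, at 0.24 (SE 0.89, adjusted p = 0.871 in limma). For bta-miR-146a the level was 249, 1659, 3641, 431 and 178 CPM in SS steers 274, 287, 294, 299 and 310, against 432, 407, 297 and 1775 CPM in NS steers 108, 152, 165 and 242. It shared with the 5 miRNAs the low levels in SS steers 274 and 310, but its highest library was SS steer 294. With TMM scaling 7 of the 11 were at lower level in SS, and bta-miR-146a was at 0.92. The 12 immune miRNAs summed to 70229 CPM in NS steer 242, the highest of all libraries. Most of this sum was bta-miR-181a (34385 CPM) and bta-miR-21-5p (28809 CPM). Of the immune list, bta-miR-181a was highest in NS steer 242, but bta-miR-21-5p (29779 CPM) and bta-miR-146a (3641 CPM) were highest in SS steer 294. NS steers 108, 152 and 165 had 19127 to 43192 CPM, and SS had 7993 to 52794 CPM.

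The miRNAs of other cell types moved with these libraries. The 9 epithelial miRNAs summed to 4276 to 401685 CPM in SS (median 60170) and 25250 to 134093 CPM in NS, with the lowest sums in SS steers 274 and 310 and NS steer 242. The 7 smooth muscle miRNAs summed to 222075 to 736846 CPM in SS and 306226 to 627895 CPM in NS. In SS, steers 287 and 294 had the highest epithelial sums, the lowest smooth muscle sums and the highest levels of the 5 miRNAs, and steers 274 and 310 the opposite. The smooth muscle sum was almost all bta-miR-143, at 322142 of 325505 CPM in SS steer 287. Not every miRNA of that list followed it, as bta-miR-145 was at 2716 CPM in SS steer 287 and 1758 CPM in SS steer 310. NS steer 242 departed from this pattern. Its epithelial sum was 0.254 times and its smooth muscle sum 0.592 times the median of the other NS libraries. Its 3 erythrocyte miRNAs summed to 3034 CPM, where NS steers 108, 152 and 165 had 269 to 496 CPM, and its 2 endothelial miRNAs to 14094 CPM, where these had 4756 to 5965 CPM. No miRNA of these 4 lists was at 0 in any library. The part of tissue makeup in the levels of the 5 miRNAs was not tested.

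**Figure D4:**
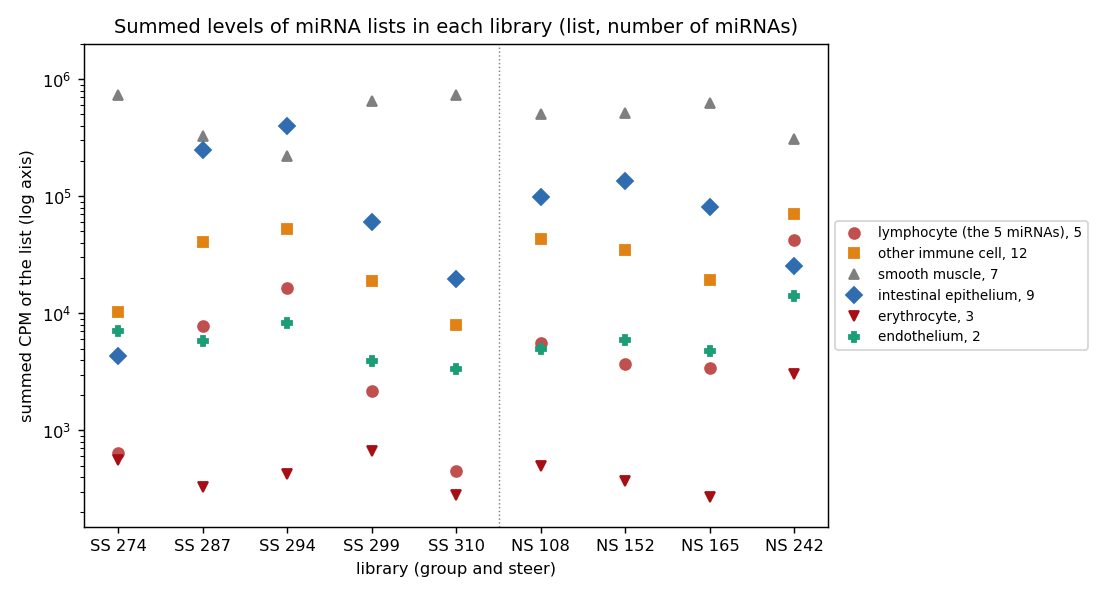
Summed level (CPM, log axis) of the 5 lymphocyte miRNAs and of lists of miRNAs of other cell types in each library, SS steers to the left and NS steers to the right of the dotted line. Each point is 1 library, and the number in the legend is the number of miRNAs in a list. The 5 miRNAs are lowest in SS steers 274 (646 CPM) and 310 (453 CPM) and highest in NS steer 242 (42597 CPM). The sums of the other immune cell, erythrocyte and endothelial lists are also highest there, though not every miRNA of the immune list is.

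The tested miRNAs most like the 5 were ranked by the Pearson correlation of log2 levels over the 9 libraries, as a description. Closest to bta-miR-150 were bta-miR-29a (r = 0.977), bta-miR-15a (r = 0.977), of a family that represses BCL2 and is lost in human chronic lymphocytic leukemia, and bta-miR-181b (r = 0.972), of a family active in developing T and B cells. For bta-miR-155 they were bta-miR-15b (r = 0.948), bta-miR-221 (r = 0.939) and bta-miR-93 (r = 0.938), and for both arms of miR-142 bta-miR-25 (r = 0.986 for each). For bta-miR-142-5p the next was bta-miR-15a (r = 0.986) and for bta-miR-142-3p bta-miR-505 (r = 0.977), followed for each by bta-miR-2284x (r = 0.982 and 0.976), a ruminant miRNA. Whether its reads could also come from near-identical relatives was not examined. Closest to bta-miR-342 were bta-miR-32 (r = 0.976), bta-miR-2284x (r = 0.957) and bta-miR-186 (r = 0.957). After centring on the library median, bta-miR-15a was first for bta-miR-150 (r = 0.953) and for both arms of miR-142. First were bta-miR-15b for bta-miR-155 (r = 0.866) and bta-miR-32 for bta-miR-342 (r = 0.862), while bta-miR-186 was at place 53 for bta-miR-342 (r = 0.283). For bta-miR-150, bta-miR-29a was then at place 4 and bta-miR-181b at place 17 (r = 0.696). For bta-miR-155, bta-miR-221 was at place 4 and bta-miR-93 at place 37 (r = 0.524). Centring put bta-miR-2284x at places 18 to 31 for its 3 members, bta-miR-25 at place 10 for both arms and bta-miR-505 at place 7. These points share 9 libraries and their totals.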

How the data were processed

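Small RNA libraries (Illumina TruSeq) were sequenced by the authors and assigned to miRBase sequences with sRNA toolbox; Bowtie and edgeR are named in the submitters' processing notes, with no version. The deposited values, a read-based signal that the authors call CPM or RPM, sum to 1024945 to 1089433 per library (0 columns were left out). All were whole reads times 1 step per library (100% of values within 0.001 reads), so that reads and the totals used as divisors were recovered. The plan took the values for CPM, and the same test was kept.

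Groups and steer numbers came from the sample titles. Nothing in the labels gives a batch. miRNAs at 5 CPM or more in at least 4 libraries (245, with 270 under the filter) were tested as log2(CPM + 1), which understates changes of low miRNAs, by limma (version 3.58.1, run in R 4.3.3), the prior trended and p adjusted by Benjamini-Hochberg. Log2 differences are SS minus NS. Exact permutation tests were two-sided. Alternatives were pseudocounts of 0.5 and 5, other filters, TMM, median-of-ratios and quantile scaling, bta-miR-143 left out of the total, edgeR 4.0.16 and DESeq2 1.42.0 on the recovered reads, and each library left out. The limma procedure was also run on simulated counts with known changes. These were drawn independently for each miRNA, without shifts shared across a library. They therefore cannot show how it behaves where such shifts occur. Clopper-Pearson intervals (95%) cover counting error only. The 5 miRNAs and all lists were chosen with earlier results of these data known. The miRNAs named are the 5, the 3 most correlated with each, and the extremes of the immune list. Added as context were bta-miR-143, bta-miR-145, bta-miR-192, bta-miR-181a, bta-miR-21-5p and those first after centring.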

Additional observations from a re-analysis of the deposited data

Results flagged for a closer look

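NS steer 242 stood far above the other 3 NS libraries for all 5 miRNAs and for their sum. It held 5728 CPM of bta-miR-150, 1387 CPM of bta-miR-155, 2651 CPM of bta-miR-142-3p, 32085 CPM of bta-miR-142-5p, 746 CPM of bta-miR-342 and 42597 CPM in sum. The gap to the next library was 0.871 (bta-miR-155) to 0.959 (bta-miR-142-3p) of the range of the group, above the limit of 0.829 for 4 samples. Among the 14 groups of values examined no SS group and neither group of the ratio of the miR-142 arms passed its limit. Chance passes about 1 in 20 groups if the values are normally distributed. The limits were applied to CPM and to the ratio of reads, not to log2 levels. Whether the flags remain on the log2 scale was not examined. These 6 cases come from 1 library and from miRNAs that vary together, so they are not separate cases.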

How the results depend on the processing

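The count of 0 called miRNAs was 1 with no filter, 1 in edgeR's exact test and 9 in DESeq2, and 0 in the other 17 fits. DESeq2 called bta-miR-155 (-1.36, adjusted p = 0.0858), and no other fit called a member. The log2 difference of bta-miR-342 was above 0 with TMM (0.23), median-of-ratios (0.24) and quantile scaling (0.46), in edgeR's quasi-likelihood (0.22) and exact tests (0.22) and in DESeq2 (0.24). With each library left out in turn it was -0.75 to 0.01, and without NS steer 242 it was 0.0146. The other 4 members stayed below 0 in all 20 alternatives. Leaving out libraries gave -3.41 (without SS steer 294) to -1.76 (without NS steer 242) for bta-miR-150, -2.54 (without SS steer 294) to -1.74 (without NS steer 242) for bta-miR-155, -2.24 to -0.62 for bta-miR-142-3p and -2.35 to -0.74 for bta-miR-142-5p, with the ends at the same libraries. On the whole reads, bta-miR-142-3p was nearer to 0, at -0.26 in both edgeR tests and -0.20 in DESeq2, and bta-miR-142-5p was at -0.70 in both edgeR tests and -0.64 in DESeq2. Group means without each library were added after seeing the data. Without NS steer 242 the order of the means turned for both arms of miR-142, bta-miR-342 and the sum of the 5 (5472 CPM in SS and 4257 CPM in NS), and leaving out any other library turned none of them. The balance of the miR-142 arms was 0.08 to 0.26. Of the 10 pairs of members, 9 or 10 remained correlated without any 1 library, and 8 after centring. Each member rested on at least 88 reads per library. The causes of these shifts were not tested.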
